A study of Mus musculus with 4 samples.

Results

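Ribosome biogenesis and RNA polymerase I genes were examined in soleus muscle of *mdx* mice treated with mouse cardiosphere-derived cells (mCDCs) or with vehicle. Members were the rows of the count table whose symbol starts with Nop, Nol, Utp or Rrp and a digit, or with Polr1 and a letter, plus *Fbl*, *Ncl*, *Npm1*, *Dkc1* and *Gar1*. These were 43 of the 24054 rows, and all 43 passed the filter on low counts, among 13652 genes tested. The 4 muscles came from female mice of the *mdx* genotype, in which the dystrophin gene is mutated, so controls and treated mice shared the disease. The strain was C57BL/10ScSn-DMDmdx/J. 2 muscles were from mice given mCDCs at passage 5, a cardiac stromal cell preparation grown from the heart of 1 C57BL/10ScSn/J female, through the femoral vein every month. The other 2 were from mice given the culture medium (IMDM) alone as vehicle. Infusions started at 8 weeks of age, and the muscles were taken at the 12-month endpoint, counted from the start of the study. The records do not say whether each library came from its own mouse, so p-values measure the spread between these libraries.

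Ribosomes are built in the nucleolus. RNA polymerase I (Pol I) transcribes the ribosomal DNA into a long precursor, small nucleolar ribonucleoproteins (snoRNPs) modify it, and processing factors cut it and fold it with ribosomal proteins into the small and the large subunit. In skeletal muscle this pathway is known for its link to growth, since the number of ribosomes limits how much protein a fiber can make.

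Reads were summarized as RSEM expected counts, which totalled between 22481391 and 27187425 per library, and mCDC replicate 2 had the lowest total. Values are given as CPM, expected counts relative to the library total after trimmed mean of M-values (TMM) scaling, whose factors lay between 0.972 and 1.04. Markers of slow fibers, in which soleus is rich, summed to between 93910 and 111531 CPM and fast fiber myosins to between 10267 and 13007 CPM in the 4 libraries. Satellite cell and myoblast markers summed to 138 and 145 CPM in mCDC replicates 1 and 2. In vehicle replicates 1 and 2 they summed to 85.1 and 97.2 CPM. Of these 6 markers, 3 were called higher (a fold over 1.5 with an unadjusted p under 0.05), against 1.26% of all tested genes. Fibroblast markers were at 304, 266, 290 and 492 CPM in the same order, endothelial markers at 100.2, 80.4, 85.3 and 178 CPM, and macrophage markers at 25.1, 32.7, 23.1 and 40.7 CPM, with vehicle replicate 2 highest each time. Of these, 2 of 5 fibroblast markers and 1 of 5 macrophage markers were called lower, against 2.74% of all tested genes, and 1 macrophage marker higher. That library was also highest for red blood cell markers (270, 279, 244 and 454 CPM, with 1 of 5 called lower) and Schwann cell markers (26.96, 30.7, 26.98 and 44.2 CPM), while adipocyte markers had 6.14, 6.81, 13.1 and 2.55 CPM. Markers of cycling cells summed to at most 2.47 CPM, those of T and B cells to at most 1.005 and 0.568 CPM, and those of neurons to at most 0.0757 CPM, with *Rbfox3*, *Snap25* and *Syt1* at 0 in at least 1 library. In bulk muscle, more cells of a type and more RNA per cell cannot be told apart, and the part of these cell types in the results was not tested.

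Most of the 43 genes were somewhat higher in mCDC than in vehicle muscles, but by little and unevenly between the libraries. Their median log2 fold change, mCDC over vehicle, was 0.19 or 1.14-fold, where the median of all tested genes was -0.0094. Of the 43, 41 had a log2 fold change above 0 (95.3%, against 48.4% of all tested genes), and 34 did when libraries were scaled by their totals alone, against 35.3% of all tested genes in that fit. A fold over 1.25 was reached upward by 12 members (27.9%, against 8.38% of all tested genes) and downward by 1, *Nol4*, against 17.2%. Both mCDC libraries lay above both vehicle libraries for 22 members (51.2%, against 19.2% of all tested genes) and below them for 1, *Nol4*, against 19.5%. No member was called by the same thresholds, where 1.26% of all tested genes were called higher and 2.74% lower. The largest fold upward was 1.46. An unadjusted p under 0.05 was reached by 5 members, all higher (11.6%, against 2.85% of all tested genes), and by 0 in the lower direction, against 4.09%. These 5 were *Nop2*, *Utp11l*, *Nop16*, *Rrp12* and *Nol12*. After Benjamini-Hochberg adjustment in edgeR's quasi-likelihood test, 0 of the 13652 genes had an adjusted p under 0.05, while 947 had an unadjusted p under 0.05, and the smallest adjusted p of a member was 0.673. Other tools gave 53 (DESeq2), 66 (likelihood ratio) and 58 (exact test) genes with an adjusted p under 0.05, and no member among them. For 1 gene in 2 against 2 muscles, the smallest p an exact permutation test allows is 0.333.

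**Figure D1:**
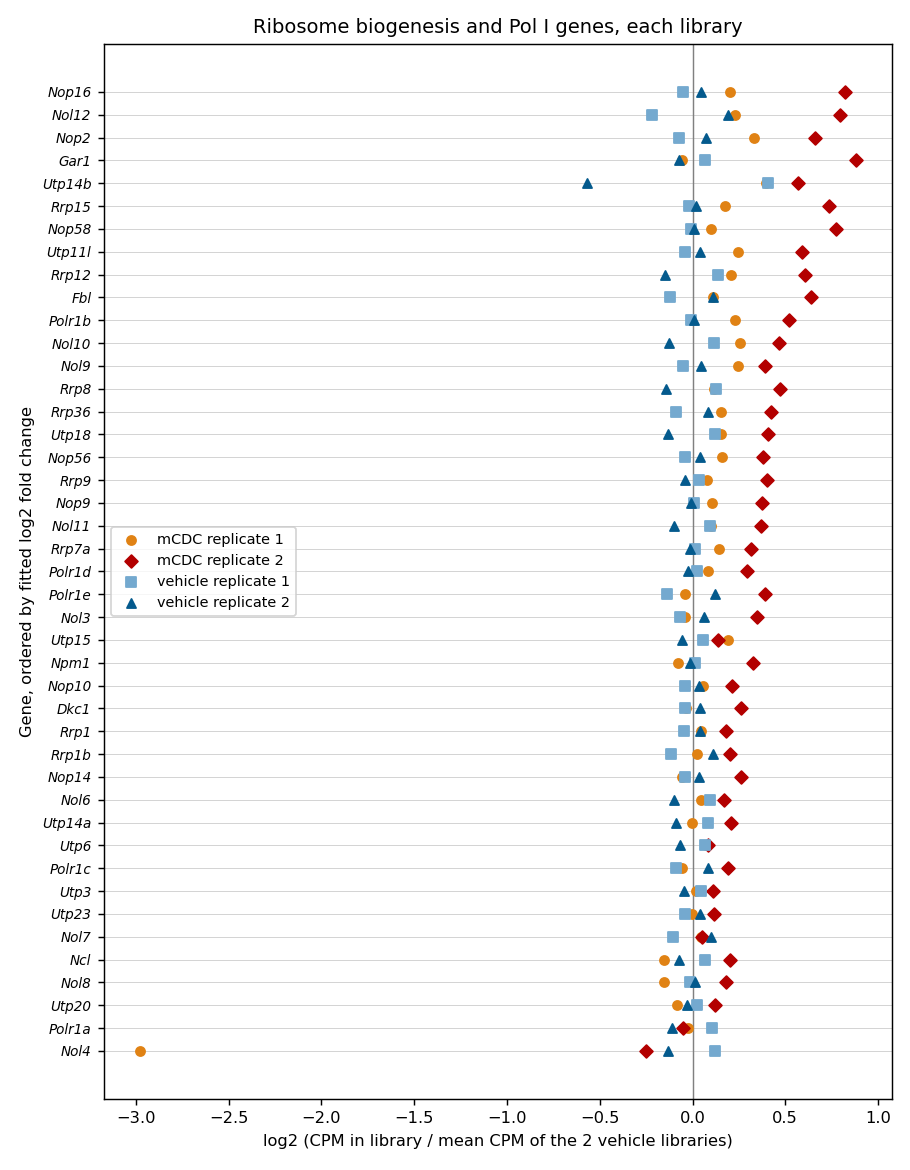
Each row is 1 of the 43 genes, ordered by fitted log2 fold change, and each symbol is 1 library; the x axis is the log2 ratio of its CPM to the mean CPM of the 2 vehicle libraries, whose position is the vertical line. mCDC replicate 2 (red diamonds) is the rightmost symbol in 39 of the 43 rows, mCDC replicate 1 (orange circles) lies close to the vehicle libraries, and the low-count gene *Nol4* has an mCDC replicate 1 value far to the left.

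The muscles did not contribute equally. mCDC replicate 2 had the highest CPM for 39 of the 43 members (90.7%), against 28.0% of all tested genes, and the lowest for 0. mCDC replicate 1 was highest for 1 member and lowest for 6, vehicle replicate 1 was lowest for 20 and vehicle replicate 2 for 17. Summed over the members, mCDC replicates 1 and 2 had 1911 and 2334 CPM and vehicle replicates 1 and 2 had 1896 and 1881 CPM. The median member stood at -0.015 and 0.25 in mCDC replicates 1 and 2 and at -0.098 and -0.11 in vehicle replicates 1 and 2, as the log2 ratio to that gene's mean over the libraries. Without mCDC replicate 2, the median log2 fold change was 0.078 with 30 members above 0, against 48.3% of all tested genes. Without mCDC replicate 1, it was 0.35 with 41 above 0, against 46.6% of all tested genes. In that fit 9 members were called higher, against 2.84% of all tested genes, whose calls themselves rose from 172 to 397. Those 9 were *Fbl*, *Gar1*, *Nol12*, *Nop16*, *Nop2*, *Nop58*, *Rrp12*, *Rrp15* and *Utp11l*. The median was 0.22 without vehicle replicate 1 and 0.17 without vehicle replicate 2, with 1 and 2 members at p under 0.05. The shares of all tested genes higher at that p were 3.80% and 2.52%, so these counts were near the background. The excess over vehicle was thus larger in mCDC replicate 2 than in mCDC replicate 1. What set the mCDC muscles apart from each other was not tested.

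**Figure D2:**
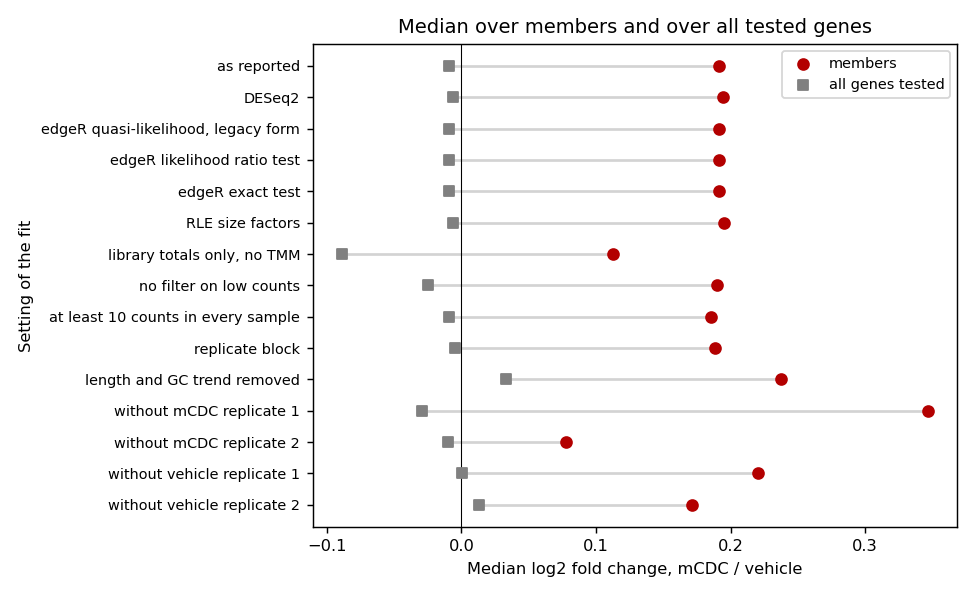
The median log2 fold change of the 43 members (red circles) and of all tested genes (grey squares) is plotted for the fit as reported and for each alternative, with a line joining the pair. The members stay above all genes in every row, and the gap is smallest without mCDC replicate 2 (0.078 against -0.010) and largest without mCDC replicate 1 (0.35 against -0.030).

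Pol I itself is a complex of a catalytic core and subunits it shares with other polymerases or holds alone. *Polr1a*, the largest catalytic subunit, had 74.4 and 73.1 CPM in mCDC replicates 1 and 2 and 81.4 and 70.0 CPM in vehicle replicates 1 and 2, a log2 fold change of -0.037 (standard error, SE, 0.14) with overlapping groups. It was 1 of the 2 members at or below 0, and stood at 0.079 without vehicle replicate 1. *Polr1b* (chr2:129100995-129126594, GRCm38), the other large catalytic subunit, had 18.5 and 22.6 CPM in mCDC and 15.7 and 15.9 CPM in vehicle muscles. Both mCDC values lay above both vehicle values, with a log2 fold change of 0.38 (SE 0.17, unadjusted p = 0.0560, adjusted p = 0.724 from edgeR). *Polr1b* stood at 0.23 without mCDC replicate 2. *Polr1c* and *Polr1d*, which Pol I shares with RNA polymerase III, had log2 fold changes of 0.071 and 0.19. *Polr1d* had 77.4 and 89.3 CPM against 74.2 and 71.7 CPM, with no overlap, and *Polr1c* overlapped. *Polr1e*, a subunit that helps the enzyme start and elongate, had 3.83 and 5.16 CPM against 3.59 and 4.29 CPM, with overlapping groups and a log2 fold change of 0.18 (SE 0.26). The 2 catalytic subunits thus differed in their values, though a difference between them was not tested. 3 further Pol I subunits are listed under older symbols that the member rule does not reach. *Twistnb*, *Cd3eap* and *Znrd1* had log2 fold changes of 0.28, 0.15 and 0.16, and none had an unadjusted p under 0.05.

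Box C/D snoRNPs place methyl groups on the ribose of ribosomal RNA, with fibrillarin (*Fbl*) as the enzyme and *Nop56* and *Nop58* as the scaffold. *Fbl* had 37.3 and 53.9 CPM in mCDC replicates 1 and 2 and 31.8 and 37.4 CPM in vehicle replicates 1 and 2. mCDC replicate 1 was level with vehicle replicate 2, so the groups overlapped, and the log2 fold change of 0.40 had a SE of 0.20 (unadjusted p = 0.0782 from edgeR). *Nop58* had 20.03 and 32.0 CPM against 18.6 and 18.8 CPM, a log2 fold change of 0.48 (SE 0.22). Its mCDC libraries both lay above the vehicle libraries, but it stood at 0.10 without mCDC replicate 2. *Nop56* had 43.4 and 50.4 CPM against 37.7 and 39.9 CPM, a log2 fold change of 0.27 (SE 0.14), with no overlap. Without mCDC replicate 2, *Fbl* stood at 0.11 and *Nop56* at 0.16, and the 3 genes had values above 0 with each library left out in turn. The fourth core protein, *Nhp2l1*, which no member prefix reaches, had 56.4 and 61.8 CPM against 52.6 and 51.4 CPM, a log2 fold change of 0.18 (SE 0.13) that was not called.

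Box H/ACA snoRNPs turn uridines of ribosomal RNA into pseudouridines. *Dkc1*, whose product dyskerin is the enzyme, had 30.98 and 38.1 CPM in mCDC and 30.9 and 32.7 CPM in vehicle muscles, for a log2 fold change of 0.12 (SE 0.16), and the groups overlapped. *Gar1*, a core protein of the same particle, had 15.6 and 29.9 CPM against 17.1 and 15.5 CPM. Here only mCDC replicate 2 stood out, and mCDC replicate 1 lay between the vehicle libraries. The log2 fold change of *Gar1* was 0.48 (SE 0.28) with all libraries, 0.88 without mCDC replicate 1 and -0.055 without mCDC replicate 2. *Nop10*, the smallest core protein, had a log2 fold change of 0.13 (SE 0.14) with both mCDC libraries above the vehicle libraries. The fourth core protein, *Nhp2*, belongs to no member prefix and was called higher. It had 22.5 and 37.3 CPM in mCDC and 17.3 and 21.4 CPM in vehicle muscles, for a log2 fold change of 0.63 (SE 0.25, unadjusted p = 0.0340, adjusted p = 0.713 from edgeR).

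*Ncl* and *Npm1* encode abundant nucleolar proteins, and neither separated the groups. Nucleolin (*Ncl*), a histone chaperone and RNA-binding protein, had 292 and 374 CPM in mCDC replicates 1 and 2 and 341 and 309 CPM in vehicle replicates 1 and 2. The mCDC libraries held both the lowest and the highest value, the log2 fold change was 0.035 (SE 0.16), and it was -0.043 when libraries were scaled by their totals alone and 0.26 with a trend over transcript length and GC content removed. Nucleophosmin (*Npm1*), a chaperone of nucleolar assembly, had 110 and 146 CPM against 117 and 115 CPM, a log2 fold change of 0.14 (SE 0.16). Without mCDC replicate 2, *Ncl* stood at -0.15 and *Npm1* at -0.076.

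The small subunit processome is the large assembly that folds and cuts the precursor around the future small subunit, and 19 members work in it or close to it. All 19 had log2 fold changes above 0, from 0.019 to 0.48 with a median of 0.23, and 11 did not overlap between the groups, with mCDC higher in each, where 19.2% of all tested genes lay that way. Their fold changes stayed above 0 for all 19 under RLE size factors, but *Nol7*, *Utp3*, *Utp20* and *Utp23* were below 0 when libraries were scaled by their totals alone. *Utp11l* (chr4:124678160-124693600, GRCm38), listed today as *Utp11*, had 39.2 and 49.7 CPM in mCDC replicates 1 and 2 and 32.1 and 33.9 CPM in vehicle replicates 1 and 2, a log2 fold change of 0.43 (SE 0.16, unadjusted p = 0.0290, adjusted p = 0.705 from edgeR). Both mCDC libraries lay above both vehicle libraries. *Rrp12* (chr19:41862851-41896173), which accompanies pre-ribosomes out of the nucleus, had 82.7 and 109 CPM against 78.5 and 64.5 CPM, a log2 fold change of 0.42 (SE 0.18, unadjusted p = 0.0431, adjusted p = 0.713 from edgeR). Its mCDC replicate 1 was only just above vehicle replicate 1. Without mCDC replicate 2, *Utp11l* stood at 0.25 and *Rrp12* at 0.21 on the log2 scale. *Nol10* had a log2 fold change of 0.37, *Rrp36* of 0.29, *Utp18* of 0.28, *Rrp9*, a protein of the U3 snoRNP, of 0.25, *Nop9* of 0.24, *Nol11* of 0.24 and *Rrp7a* of 0.23, with no overlap for these 7. *Utp15* and *Utp6*, at 0.17 and 0.079, did not overlap either. *Utp6* had 47.3 and 47.6 CPM against 47.0 and 42.8 CPM, and *Nol11* had 14.73 and 17.72 CPM against 14.69 and 12.81 CPM. For both genes the lower mCDC value was so close to the higher vehicle value that the order says little. *Nop14*, *Nol6*, *Utp14a*, *Utp3*, *Utp23*, *Nol7* and *Utp20* overlapped, with log2 fold changes from 0.019 for *Utp20* to 0.11 for *Nop14*. *Utp14b*, a retrocopy of *Utp14a*, rested on 7.54 to 14.7 expected counts per library and lies on the same strand as exons of *Acsl3*. Its log2 fold change of 0.48 had a SE of 0.53 and is uncertain, since reads can be divided between the overlapping genes.

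The factors of the large subunit held 3 of the 5 members with an unadjusted p under 0.05, and 6 of 9 did not overlap between the groups, with mCDC higher. The shares of all tested genes were 2.85% and 19.2%. *Nop2*, a methyltransferase of large subunit RNA at chr6:125131909-125144753 (GRCm38), had the smallest p of all 43. Its values were 31.2 and 39.2 CPM in mCDC replicates 1 and 2 and 23.5 and 26.05 CPM in vehicle replicates 1 and 2, means of 35.2 ± 5.6 and 24.8 ± 1.8 CPM (SD, n = 2 each). Both mCDC libraries were above both vehicle libraries, and the log2 fold change of 0.51 had a SE of 0.17 (unadjusted p = 0.0162, adjusted p = 0.673 from edgeR). *Nop2* stayed above 0 with each library left out, from 0.33 without mCDC replicate 2 to 0.66 without mCDC replicate 1. *Nop16* (chr13:54584185-54590090), a nucleolar factor of the large subunit, had 18.6 and 28.5 CPM against 15.6 and 16.7 CPM, a log2 fold change of 0.54 (SE 0.22, unadjusted p = 0.0377, adjusted p = 0.713 from edgeR). *Nol12* (chr15:78934933-78943638), an RNA-binding protein of large subunit processing, had 19.8 and 29.3 CPM against 14.5 and 19.3 CPM, a log2 fold change of 0.54 (SE 0.23, unadjusted p = 0.0482, adjusted p = 0.713 from edgeR). *Nop16* stood at 0.20 without mCDC replicate 2 and at 0.82 without mCDC replicate 1. For *Nol12*, mCDC replicate 1 exceeded vehicle replicate 2 by little, and the log2 fold change was 0.23 without mCDC replicate 2. *Rrp15* had 9.09 and 13.4 CPM against 7.94 and 8.15 CPM, a log2 fold change of 0.48 (SE 0.23) that fell to 0.18 without mCDC replicate 2. *Nol9*, an RNA kinase of spacer processing, had a log2 fold change of 0.32 and *Rrp8*, a methyltransferase that also acts on ribosomal DNA chromatin, one of 0.30, and of these only *Nol9* did not overlap. *Rrp1*, *Rrp1b* and *Nol8* had log2 fold changes of 0.11, 0.11 and 0.022, and *Rrp1*, at 140.6 and 154 against 132 and 140.2 CPM, did not overlap. *Gltscr2*, whose current symbol *Nop53* would have met the rule, had a log2 fold change of 0.045.

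**Figure D3:**
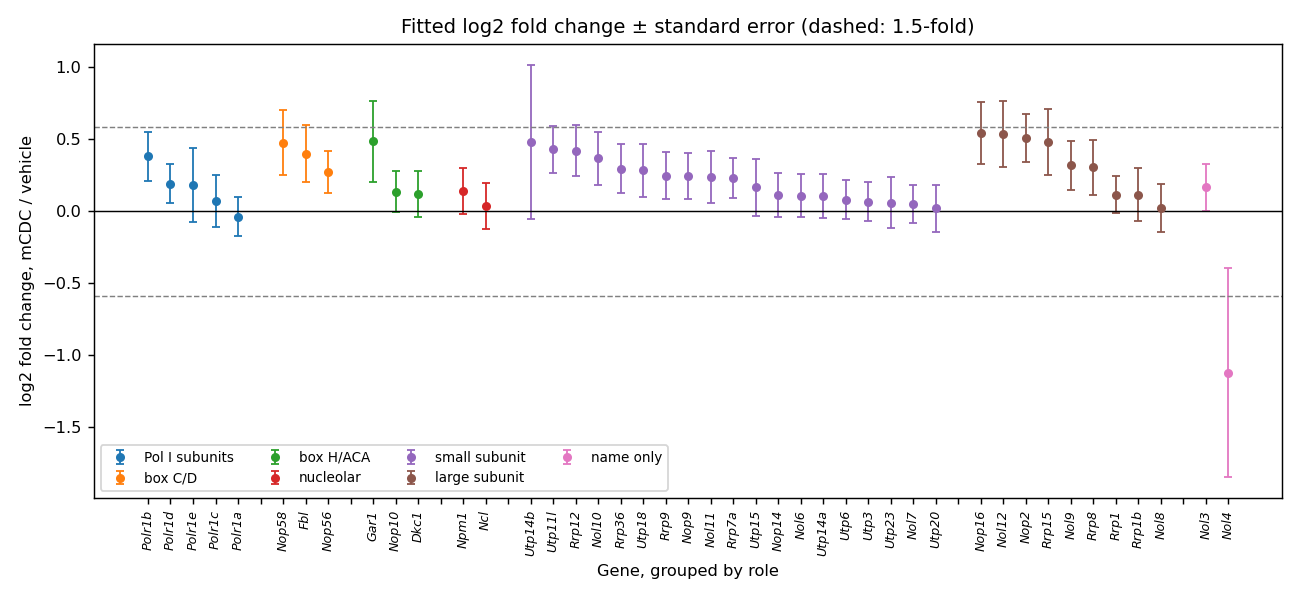
Fitted log2 fold changes of mCDC over vehicle muscles (points) with standard errors (bars) are grouped by role, with dashed lines at a fold of 1.5. All points lie between the dashed lines but that of *Nol4*, which is at -1.12 with a SE of 0.72, and *Polr1a* at -0.037 is the only other point below 0.

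2 members carry the name without working in ribosome biogenesis. *Nol3*, an apoptosis repressor known from striated muscle, had 249 and 325 CPM in mCDC replicates 1 and 2 and 244 and 268 CPM in vehicle replicates 1 and 2, a log2 fold change of 0.17 (SE 0.16). The groups overlapped. *Nol4*, known mainly from the nervous system and testis, had 2 and 11 expected counts in mCDC and 17 and 15 in vehicle muscles. Its log2 fold change of -1.12 had a SE of 0.72 (unadjusted p = 0.161 from edgeR) and rested on mCDC replicate 1, since it was -0.24 without that library and -2.90 without mCDC replicate 2, where *Nol4* was the only member called lower, among 236 of 13999 genes tested in that fit. Without *Nol3*, *Nol4* and *Utp14b*, a choice made after the values were seen, 39 of 40 members were above 0, with a median of 0.21.

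Levels can be compared between genes only per length. By CPM per kilobase of transcript and also per kilobase of coding sequence, *Nol3*, *Npm1*, *Polr1d*, *Rrp1*, *Nol7* and *Ncl* were among the 7 highest members and *Utp14b* and *Nol4* were the 2 lowest. *Nol3* stood at 85.5 CPM per kilobase of transcript, *Npm1* at 74.8, *Rrp1* at 71.4 and *Polr1d* at 65.3. *Polr1a*, at 8.11, and *Polr1b*, at 4.55, were lower. Some annotated transcripts are much longer than their coding part, as for *Nop58* with 9507 and 1608 bases, so the order between other members depended on the length used. Exons of 13 members overlap a gene on the opposite strand, such as *Nop56* with *Idh3b* and *Rrp8* with *Ilk*, and whether counting used the strand is not given in the sources used here. Of the 43, 22 share no 31-base word with another listed gene, and the largest share was 6.83%, for *Utp23*.

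Promoter windows from RefSeq (GRCm38.p6) were matched for 34 members and 10628 tested genes, and the 250 bases before the start were searched. The ETS core was searched on both strands and TATAAA only on the strand printed below, while CACGTG reads the same on both. The E-box CACGTG, the site bound by MYC with MAX, occurred in 5 of the 34 members (14.7%, against 9.85% of the tested genes): *Nop2*, *Utp18*, *Nol11*, *Rrp7a* and *Utp14b*. The ETS core CCGGAAG occurred in 8 (23.5%, against 14.8%) and TATAAA in 2 (5.88%, against 5.03%). These letters are a description of the windows and no test was made. Of the 5 members with an unadjusted p under 0.05, *Nop2*, *Nop16* and *Nol12* had a window, and only that of *Nop2* held the E-box. The following stretches show these 3 and the 3 further E-box windows of members whose groups did not overlap, each of 60 bases, 5′ to 3′ on the transcribed strand, with the E-box in capitals.
Nop2 (chr6:125131796-125131855, plus strand): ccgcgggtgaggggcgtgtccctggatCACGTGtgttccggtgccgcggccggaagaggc
Nop16 (chr13:54590091-54590150, minus strand): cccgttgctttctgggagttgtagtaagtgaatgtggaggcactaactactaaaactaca
Nol12 (chr15:78934873-78934932, plus strand): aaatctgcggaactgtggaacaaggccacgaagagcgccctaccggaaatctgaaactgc
Utp18 (chr11:93885767-93885826, minus strand): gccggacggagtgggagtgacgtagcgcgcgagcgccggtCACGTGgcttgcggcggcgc
Nol11 (chr11:107189392-107189451, minus strand): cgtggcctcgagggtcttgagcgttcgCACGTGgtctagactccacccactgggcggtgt
Rrp7a (chr15:83122977-83123036, minus strand): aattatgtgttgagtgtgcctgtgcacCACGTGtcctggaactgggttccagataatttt
Counted from the RefSeq start of the window, which for *Nop2* lies before the GENCODE gene start given above, the E-box began 60 bases upstream in *Nop2*, 20 in *Utp18*, 43 in *Nol11* and 208 in *Rrp7a*. The log2 fold changes of these 4 ran from 0.23 for *Rrp7a* to 0.51 for *Nop2*, and *Nop16* without the motif had 0.54.

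Other genes of the pathway, which the member rule did not choose, were taken from hand-written lists. Of 142 tested ribosome biogenesis genes on 5 lists, 125 had a log2 fold change above 0, with a median of 0.20. For 74, each mCDC library lay above each vehicle library (52.1%, against 19.2% of all tested genes), and for 2 the reverse held. mCDC replicate 2 was the highest library for 111 of the 142 (78.2%), as it was for the members. Of the 142, 3 were called higher, a count near the background of 1.26% of all tested genes. 0 were called lower, against 2.74%.

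Among 51 large subunit factors the median log2 fold change was 0.23, and 7 had an unadjusted p under 0.05, all higher (13.7%, against 2.85% of all tested genes). *Gnl3*, the nucleolar GTPase nucleostemin, had 23.6 and 37.1 CPM in mCDC replicates 1 and 2 and 18.9 and 18.4 CPM in vehicle replicates 1 and 2, a log2 fold change of 0.70 (SE 0.22, unadjusted p = 0.0131, adjusted p = 0.643 from edgeR). *Ppan*, a large subunit assembly factor, had 18.0 and 23.8 CPM against 10.4 and 15.1 CPM, a log2 fold change of 0.71 (SE 0.23, unadjusted p = 0.0153, adjusted p = 0.664 from edgeR). Both were called higher, and both mCDC libraries were above both vehicle libraries for each. *Gnl3* stood at 0.34 without mCDC replicate 2 and at 0.68 without vehicle replicate 2. *Ppan* stood at 0.49 without mCDC replicate 2 and at 0.47 without vehicle replicate 1. The 38 small subunit factors had a median of 0.22, with 3 higher at an unadjusted p under 0.05 (7.89%, against the same 2.85%) and 0 called. The 12 tested partners of snoRNPs had a median of 0.16. *Nhp2* was the only one called, where 1.26% of all tested genes were called higher. That call ended with library totals (log2 fold change 0.55, with 0.886% of all tested genes called higher). It also ended with the length and GC trend removed (0.58, with 1.58%). *Nhp2* stood at 0.22 without mCDC replicate 2. The list of 17 Pol I cofactors also holds the subunits *Twistnb*, *Cd3eap* and *Znrd1* given above, and its median was 0.16 with 0 at an unadjusted p under 0.05. *Ubtf*, which opens ribosomal DNA for transcription, had 90.7 and 95.8 CPM in mCDC and 78.9 and 79.9 CPM in vehicle muscles, for a log2 fold change of 0.23 (SE 0.13). *Rrn3*, which recruits Pol I to its promoter, had 54.3 and 55.6 CPM against 53.8 and 44.4 CPM, a log2 fold change of 0.16 (SE 0.15), with mCDC replicate 1 and vehicle replicate 1 close together. Without mCDC replicate 2, the median was 0.078 for large subunit factors, 0.087 for small subunit factors, 0.084 for Pol I cofactors and 0.10 for snoRNP partners, and 0 genes of the pathway lists were called higher. Without mCDC replicate 1, 16 genes of these and the growth regulator and Pol III lists were called higher, in a fit that called 2.84% of all tested genes higher.

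**Figure D4:**
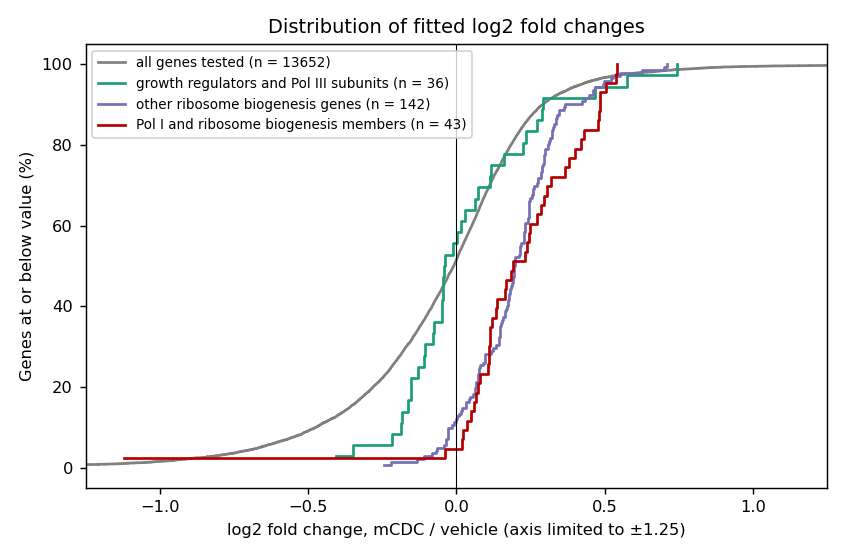
The cumulative share of genes (y axis, percent) is plotted against the fitted log2 fold change (x axis, limited to values within 1.25) for the 43 members (red), 142 other ribosome biogenesis genes (purple), 36 growth regulators and Pol III genes (green) and all 13652 tested genes (grey). The red and purple curves run together to the right of the grey curve, with medians of 0.19 and 0.20 against -0.0094.

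**Figure D5:**
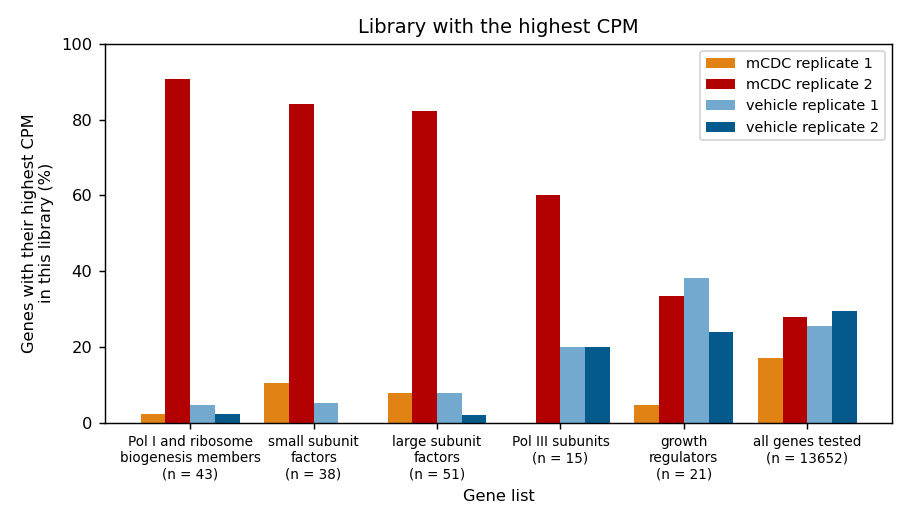
Bars give, for each gene list, the percentage of tested genes whose highest CPM was in each of the 4 libraries. mCDC replicate 2 holds 90.7% of the members, 84.2% of small subunit factors and 82.4% of large subunit factors, 60% of Pol III genes, 33.3% of growth regulators and 28.0% of all tested genes.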

How the data were processed

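Soleus RNA of 4 libraries, 2 per group, was analysed. Single-end reads had been aligned by the authors with Bowtie 2 against UCSC transcripts, and the deposited values are RSEM expected counts for each gene, without normalization. The submitters' processing notes name Bowtie2 2.1.0, RSEM 1.2.15 and mm10. The methods name an xGen library kit and the sample records another stranded kit. Of the deposited values, 15.7% were not whole, and 18 of the 43 members had such a value.

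Counts were rounded, filtered with filterByExpr, scaled by TMM and, with edgeR 4.0.16 (R 4.3.3), put through the quasi-likelihood F-test (legacy = FALSE) across all 13652 genes, with Benjamini-Hochberg adjustment. The standard error (SE) was derived from the fold change and the F statistic, as the size of the log2 value over the root of F. The thresholds of a fold over 1.5 and p under 0.05 follow the study's methods. Every member is named; of the pathway lists, called genes and *Myc*, *Ubtf* and *Rrn3*, with *Nhp2l1*, *Polr3d*, *Brf2*, *Mphosph6*, *Gltscr2*, *Twistnb*, *Cd3eap* and *Znrd1* added after their values were seen. Members and lists were chosen with earlier results of these data known. Coordinates and lengths came from GENCODE annotation of GRCm38, with 1 member matched by an older symbol. Alternatives were DESeq2 1.42.0, other edgeR tests, scalings and filters, a replicate block, a correction for transcript length and GC content, and fits without 1 library each.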

Additional observations from a re-analysis of the deposited data

How the results depend on the processing

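In 10 alternatives that kept all libraries, the members' median log2 fold change ran from 0.11 to 0.24 and lay 0.19 to 0.22 above that of all tested genes. With library totals in place of TMM, 13 members did not overlap upward and 2 downward, and 1 had an unadjusted p under 0.05, where 10.7% of all tested genes did not overlap upward, 27.9% did not downward and 1.56% were higher at that p; without a filter on low counts 3 had, against 2.19% of all genes. With at least 10 counts in every sample, or without *Nol3*, *Nol4* and *Utp14b*, 0 did not overlap downward (19.4% of all tested genes with that filter, 19.5% as reported). With the length and GC trend removed, 1 member was called higher, *Nop58* at 0.71, where 1.58% of all tested genes were, near the members' share. Reversed values were *Polr1a* at 0.14 with that trend removed and, with library totals, *Ncl* at -0.043, *Nol7* at -0.031, *Nol8* at -0.058, *Polr1c* at -0.010, *Utp20* at -0.060, *Utp23* at -0.021, *Utp3* at -0.013 and *Gltscr2* at -0.036. The causes were not tested. The number of all genes with an adjusted p under 0.05 was 53 with DESeq2, 66 with the likelihood ratio test and 58 with the exact test.

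Leaving out each library in turn, members called higher ran from 0 to 9 and called lower from 0 to 1. Members not overlapping upward ran from 23 to 40 and downward from 1 to 6. Of all tested genes, 30.1% to 36.7% did not overlap upward and 30.1% to 38.5% downward in these fits. With all libraries these shares were lower, at 19.2% and 19.5%, since 1 library separates more easily than a pair. Members higher at an unadjusted p under 0.05 ran from 0 to 9, and the members' median log2 fold change from 0.078 to 0.35. All genes called higher ran from 112 to 397 and lower from 236 to 834, and other pathway genes called higher from 0 to 16. Of the 3 of those called with all libraries, *Nhp2* was not called with library totals or with the trend removed, *Gnl3* was not without mCDC replicate 2 or vehicle replicate 2, and *Ppan* and *Nhp2* were not without mCDC replicate 2 or vehicle replicate 1. A lone library in a group was assumed to vary like the pair in the other. Of the 43 members, 29 were above 0 in all 4 of these fits. Reversed values fell within these ranges: *Dkc1* -0.036 to 0.26, *Gar1* -0.055 to 0.88, *Ncl* -0.15 to 0.21, *Nol3* -0.038 to 0.35, *Nol7* -0.044 to 0.15, *Nol8* -0.15 to 0.18, *Nop14* -0.053 to 0.26, *Npm1* -0.076 to 0.33, *Polr1a* -0.14 to 0.079, *Polr1c* -0.058 to 0.19, *Polr1e* -0.043 to 0.39, *Utp20* -0.085 to 0.12, *Utp23* -5.7e-04 to 0.12, *Myc* -0.17 to 0.65, *Cd3eap* -0.12 to 0.38 and *Gltscr2* -0.044 to 0.14.

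The replicate numbers are shared by the groups, but the correlation of the differences between replicates 1 and 2 in the 2 groups was -0.039 over genes, so they were taken as numbers only. With the replicate number as a block, 0 members were called, 5 had an unadjusted p under 0.05, with *Fbl* in place of *Rrp12* (1.26% of all tested genes called higher and 3.19% higher at that p), and the median was 0.19. Expected counts of the members lay between 2 and 8942 per library, and all but *Nol4* and *Utp14b* had at least 94.1.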

Other observations

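The 142 ribosome biogenesis genes include 24 tested exosome and processing nuclease genes. Of these 24, 20 had a log2 fold change above 0, with a median of 0.18. For 12 (50%, against 19.2% of all tested genes), each mCDC library lay above each vehicle library. *Mphosph6*, an exosome cofactor, was the only one with an unadjusted p under 0.05, at 7.27 and 8.86 CPM in mCDC replicates 1 and 2 against 5.76 and 5.68 CPM in vehicle replicates 1 and 2. Among 15 genes of RNA polymerase III and its factors, 7 were above 0 and the median was -0.012, while mCDC replicate 2 was the highest library for 60% of them. *Polr3d*, a subunit of that polymerase, had 33.8 and 47.1 CPM against 27.1 and 27.2 CPM, a log2 fold change of 0.57 (SE 0.18, edgeR adjusted p = 0.643), and *Brf2*, an initiation factor, had 7.54 and 8.36 CPM against 5.91 and 5.57 CPM. Both had an unadjusted p under 0.05 in edgeR (13.3% of the 15, against 2.85% of all tested genes) and neither reached 1.5-fold. *Polr3d* stood at 0.32 without mCDC replicate 2 and at 0.80 without mCDC replicate 1. *Brf2*, at 0.47 with all libraries, stood at 0.39 and 0.54 in these fits. In DESeq2, the unadjusted p was 0.0086 for *Polr3d* and 0.104 for *Brf2*.

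For 21 growth regulators the median was -0.044 on the log2 scale, with 9 above 0, and 0 had an unadjusted p under 0.05. *Myc*, a transcription factor known to drive ribosome biogenesis, had 6.70 and 11.9 CPM in mCDC replicates 1 and 2 and 7.17 and 7.97 CPM in vehicle replicates 1 and 2, so that mCDC replicate 2 was highest and mCDC replicate 1 lowest. Its log2 fold change was 0.29 (SE 0.28), 0.65 without mCDC replicate 1 and -0.17 without mCDC replicate 2. Both medians were above 0 without vehicle replicate 1 (Pol III 0.042, growth regulators 0.0068) and with the length and GC trend removed (0.096 and 0.046), and that of Pol III was also above 0 without mCDC replicate 1 (0.051).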
